A study of Mus musculus with 12 samples.

Results

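The cell cycle and DNA repair genes of lung group-2 innate lymphoid cells (ILC2s) were followed in a comparison of tdTomato+ with tdTomato- ILC2s. Genes were taken by symbol from the authors' lists of genes lower or higher in tdTomato+ ILC2s, with symbols of cyclin-dependent kinases (CDKs) and their inhibitors, numbered cyclins, MCM helicase subunits, DNA polymerases, cohesin and other SMC proteins, topoisomerases, kinesins, centromere proteins, E2F factors and repair proteins. This gave 53 of the 3439 listed genes. All cells came from male mice of the genotype TIGIT-Cre-ERT2:Rosa26-LSL-tdTomato on day 19 of papain and tamoxifen, so that both populations carried both alleles and had both agents. In these mice, tamoxifen lets Cre made from the *Tigit* locus switch on the red protein tdTomato, which marks cells that expressed TIGIT while tamoxifen was given. Papain is a protease that provokes airway allergy when given by the nose. ILC2s were sorted from lung as lineage-negative cells positive for CD45, CD127, CD25 and ST2, and the labels list 4 RNA libraries of each population, made from few cells. The age of the mice is not given in the sources used here, nor is which of the libraries entered the authors' fit.

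A dividing cell passes checkpoints driven by CDKs and cyclins. D cyclins with CDK4 and CDK6 inactivate the retinoblastoma protein, which frees E2F factors to switch on genes for DNA replication. Cohesin and condensin then hold and fold the copied chromosomes, kinesins and centromere proteins move them, and repair proteins mend breaks and mismatches. ILC2s are known to proliferate strongly in allergic lungs. Several genes with these names act outside the cell cycle, among them the kinases of the transcription machinery and the kinesins that carry cargo.

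Of the 53 genes, 51 were listed as lower in tdTomato+ ILC2s and 2, the kinesin genes *Kif21a* and *Kif26b*, as higher. Of all listed genes, 84.5% were listed as lower and 15.5% as higher. The mouse annotation holds 215 protein-coding genes with these symbols, of which 23.7% were listed as lower, against 13.2% of all 22028 annotated protein-coding genes. The shares listed as higher were 0.930% and 2.3%. In sorted bulk samples, fewer dividing cells and less RNA of these genes per cell cannot be told apart. The other 162 genes were in neither table, and the tables do not show whether such a gene was scarce or did not pass the authors' test. The background includes genes that lung ILC2s may not express, and the part of this in the difference of the shares was not tested.

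The level given for each gene is the authors' average log2 CPM (counts scaled to a common library total) over the libraries of their fit. It pools both populations, comes without a spread, and therefore gives neither the level in one population nor the size of a difference. Log2 CPM depends on transcript length, so levels of different genes were compared as CPM per kb of exon, and no pair of neighbours in their order can be said to differ. On the authors' log2 scale, which is not per length, values of the 51 lower genes ran from 5.07 for *Cdkn2aipnl* to 8.49 for *Mki67*, the gene of the proliferation antigen Ki-67. Per kb of exon, their median was 15.98 CPM (quartiles 10.9 and 22.2), close to the 15.4 CPM (quartiles 11.04 and 25.5) of all 2906 lower genes, and 27 of the 51 lay above that median. The highest was *Rad21*, a cohesin subunit, at 37.5 CPM per kb, followed by *Mki67* at 35.8, and the lowest was *Pola1*, the catalytic subunit of DNA polymerase alpha, at 7.75.

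**Figure D1:**
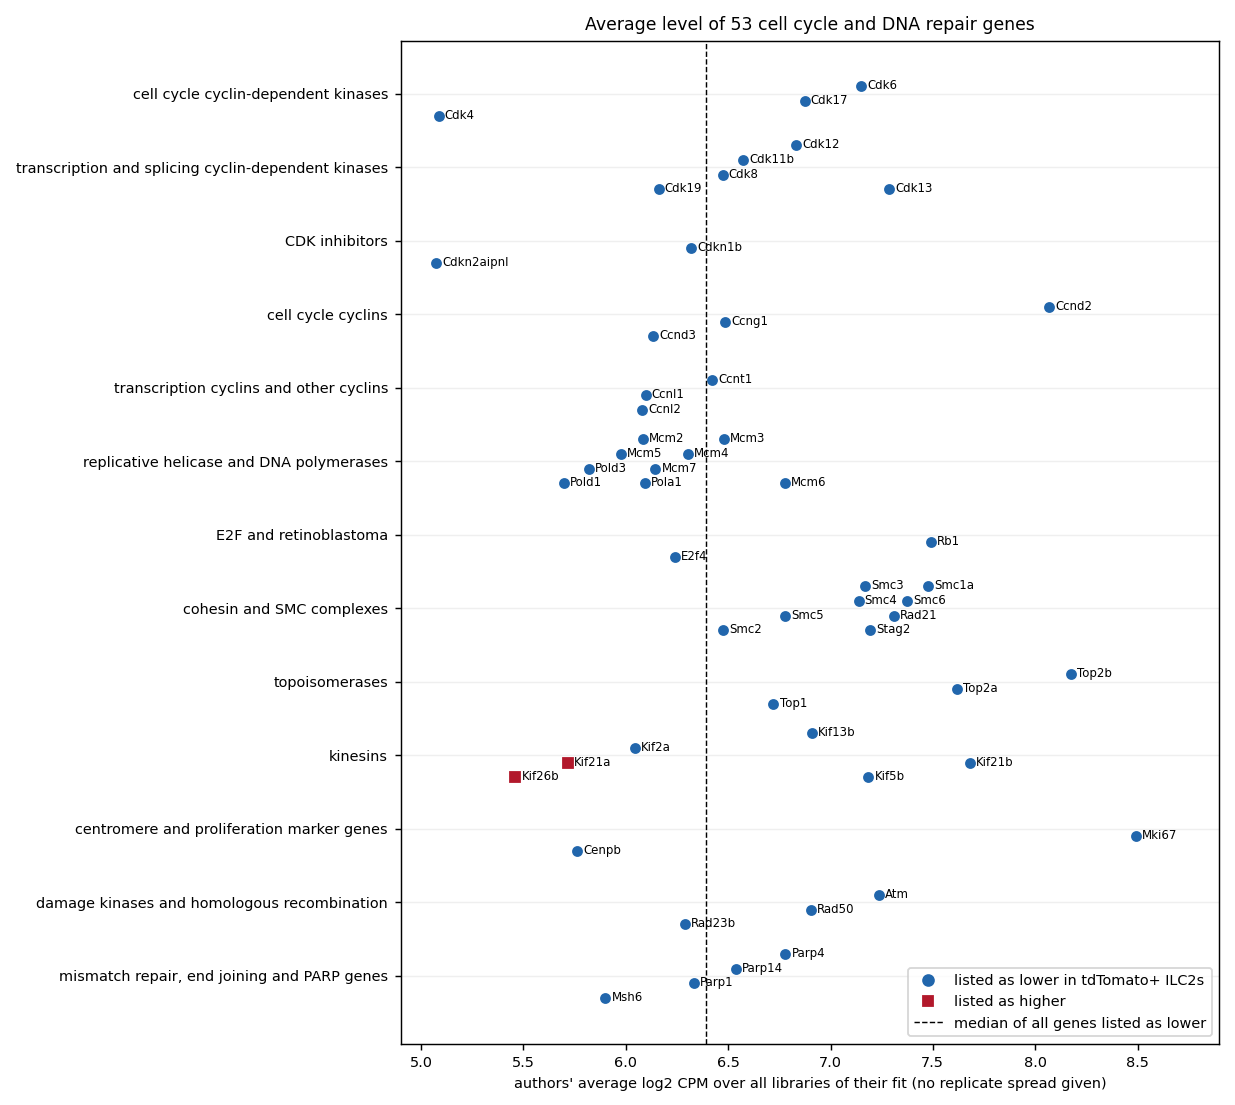
Each point is 1 gene, placed by the authors' average log2 CPM over the libraries of their fit (horizontal axis) and by role (vertical axis, with points spread only to keep names apart). Circles are the 51 genes listed as lower in tdTomato+ ILC2s, squares the 2 listed as higher, and the dashed line is the median of all lower genes, 6.39. Longer transcripts give more counts, so points of different genes do not compare abundance.

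In the step from growth to DNA synthesis, the genes of the D cyclins and their kinases were among the lower genes. *Ccnd2* had an average log2 CPM of 8.07 and *Ccnd3* of 6.13. Per kb of exon this was 28.5 CPM for *Ccnd2* and 8.003 CPM for *Ccnd3*, a 3.56-fold difference between these pooled levels. Their partner kinases had nearly the same pooled level per kb, 10.5 CPM for *Cdk4* and 10.1 CPM for *Cdk6*, although on the log2 CPM scale *Cdk4* (5.09) stood near the lower limit of the tables and *Cdk6* at 7.15. Of the 3 annotated D cyclins, *Ccnd1* was in neither table. *Rb1*, the retinoblastoma gene that these kinases act on, had an average log2 CPM of 7.49 and 29.9 CPM per kb. *E2f4*, which encodes an E2F factor known mainly as a repressor in resting cells, had 6.24 and 30.8 CPM per kb. The other 7 of 8 annotated E2f genes were in neither table. With 13.2% of all protein-coding genes listed as lower, 1 of 8 is near the background. *Cdkn1b*, the gene of the CDK inhibitor p27, was also listed as lower, at 6.32. It was the only CDK inhibitor gene listed, since *Cdkn2aipnl* (5.07) is named for a partner of such an inhibitor. *Ccng1*, a cyclin gene induced by p53, had an average log2 CPM of 6.49, and *Cdk17*, a kinase gene of less known role, one of 6.87.

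The cyclins and kinases that drive later phases were not listed. All 7 annotated genes of A, B and E cyclins were in neither table, as were *Cdk1* and *Cdk2*. With 13.2% of all protein-coding genes listed as lower, so few genes cannot be told from the background. In the groups named for transcription and splicing, 5 of 9 annotated kinase genes (55.6%) and 3 of 4 annotated cyclin genes (75%) were listed as lower. The difference from the cell cycle genes was not tested. The groups were set by symbol. The kinases include *Cdk20*, which is not a transcription kinase, and the cyclins are only those with a number. Outside these groups, *Ccnk* was lower and *Ccnc* and *Ccnh* were in neither table. *Cdk12* and *Cdk13*, whose products phosphorylate RNA polymerase II during elongation, had 9.72 and 11.6 CPM per kb. The Mediator kinase genes *Cdk8* and *Cdk19* had 9.04 and 12.2 CPM per kb. *Cdk11b*, linked to splicing, had 25.4, whereas the L cyclins *Ccnl1* and *Ccnl2*, its partners, had 11.4 and 12.8. *Ccnt1*, the cyclin of the elongation factor P-TEFb, had 9.37, and its kinase gene *Cdk9* was in neither table. Among these 8 lower genes, 1 (*Cdk11b*) lay above the median level per kb of all lower genes.

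**Figure D2:**
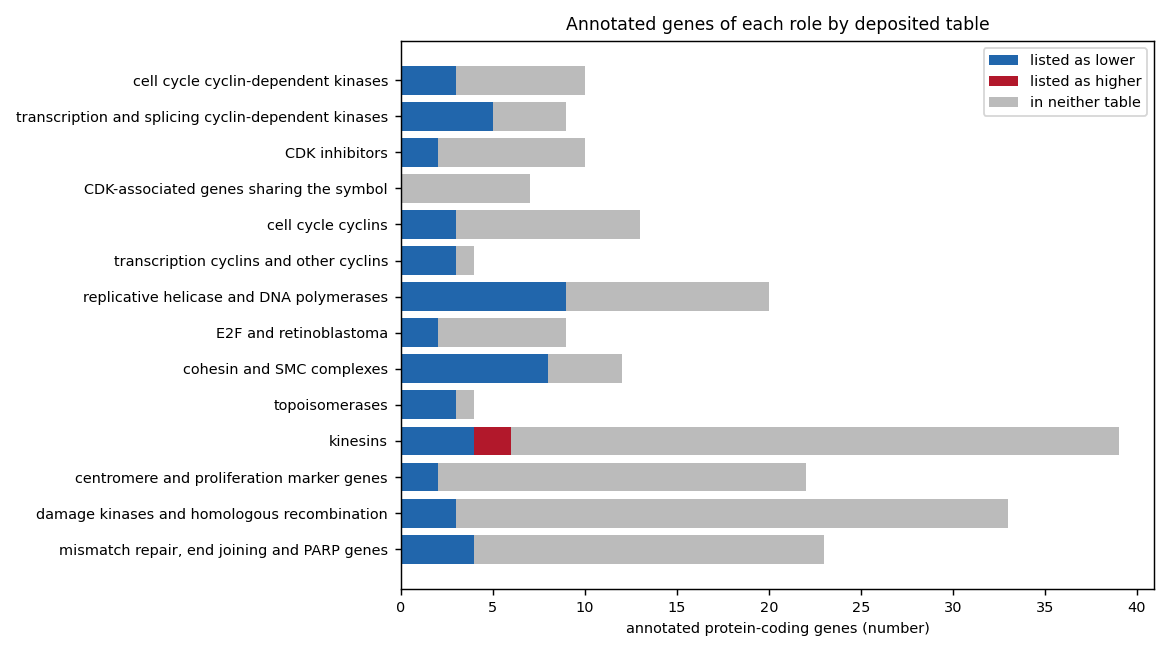
Bars count annotated protein-coding genes by role (horizontal axis, number of genes), split into those listed as lower in tdTomato+ ILC2s, those listed as higher and those in neither table. The largest listed share was 3 of 4, among topoisomerases and among transcription and other cyclins, and the 2 higher genes were kinesins. Of all annotated protein-coding genes, 13.2% were listed as lower and 2.3% as higher.

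DNA replication was represented by 9 lower genes of 20 annotated with helicase and polymerase symbols (45%, against 13.2% of all protein-coding genes). These included all 6 subunits of the MCM helicase, which unwinds DNA at the replication fork. Their average log2 CPM was 6.08 for *Mcm2*, 6.48 for *Mcm3*, 6.30 for *Mcm4*, 5.98 for *Mcm5*, 6.78 for *Mcm6* and 6.14 for *Mcm7*. Per kb of exon they lay between 9.75 CPM (*Mcm2*) and 23.8 CPM (*Mcm3*), a 2.44-fold range of pooled levels among subunits that assemble into 1 ring. Of the 11 annotated polymerase genes, 3 were listed as lower, and so few genes cannot be told from that background. *Pola1* belongs to the polymerase that starts new strands, and *Pold1* and *Pold3* to polymerase delta, which extends the lagging strand. Their pooled levels were 7.75 CPM per kb for *Pola1*, 10.7 for *Pold1* and 12.3 for *Pold3*, all below the lower genes' median. None of the Pole genes of polymerase epsilon and *Polq* was in a table.

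Promoters of replication genes are a textbook place of E2F sites. All 6 Mcm2 to Mcm7 genes were listed as lower, although 11 of the 20 annotated helicase and polymerase genes were in neither table. Promoters, from 250 bases before to 50 bases after the start of a gene, were taken from RefSeq (GRCm38.p6). They matched 8 of the 9 genes, without *Mcm4*. A description over all 53 genes had been planned. Promoters matched 39 of them (73.6%), below the 80% set as the least for a count. The description was therefore narrowed to the replication genes, and no count over the whole set is given. The E2F motif was searched on both strands in the spellings TTTGGCGC, TTTCCCGC, TTTGCCGC and TTTCGCGC. Of the 8 genes, 7 held it, the exception being *Mcm2*. Of the 11 annotated helicase and polymerase genes in neither table, 10 had a promoter and 3 of these (30%) held it, and this difference was not tested. The 11 were taken by symbol and include *Mcm3ap*, *Mcm8*, *Mcm9* and *Polq*, which are not core replication genes. The motif was found in 5.75% of the 2329 lower genes with a promoter, in 2.60% of all 27025 genes of the promoter table, and in 2.26% of the 32851 single promoters. In the following stretches of these promoters, read 5′ to 3′ along the strand of the gene, capitals mark the E2F spellings.
Mcm3 (chr1:20820263-20820323, minus strand): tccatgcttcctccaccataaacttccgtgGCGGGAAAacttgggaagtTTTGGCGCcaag
Mcm5 (chr8:75109326-75109397, plus strand): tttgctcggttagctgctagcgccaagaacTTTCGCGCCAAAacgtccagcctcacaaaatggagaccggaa
Mcm6 (chr1:128359715-128359845, minus strand): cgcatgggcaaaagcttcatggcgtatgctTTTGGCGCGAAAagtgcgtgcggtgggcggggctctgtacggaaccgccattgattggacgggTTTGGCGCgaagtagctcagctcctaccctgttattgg
Mcm7 (chr5:138171834-138172078, minus strand): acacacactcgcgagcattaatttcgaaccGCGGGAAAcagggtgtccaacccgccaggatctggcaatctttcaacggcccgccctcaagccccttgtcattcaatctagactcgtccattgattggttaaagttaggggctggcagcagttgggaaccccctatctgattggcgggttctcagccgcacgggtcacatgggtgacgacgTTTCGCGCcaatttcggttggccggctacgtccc
Pola1 (chrX:93632256-93632323, minus strand): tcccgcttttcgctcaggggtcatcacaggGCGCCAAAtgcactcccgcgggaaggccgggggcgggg
Pold1 (chr7:44548766-44548806, minus strand): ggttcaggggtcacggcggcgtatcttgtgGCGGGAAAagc
Pold3 (chr7:100121453-100121515, minus strand): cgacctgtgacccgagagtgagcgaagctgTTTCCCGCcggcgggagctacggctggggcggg
The *Mcm6* stretch held 3 spellings, the first and second overlapping, and the *Mcm5* stretch held 2 that overlap. *Mcm3* and *Mcm7* each held 2 that lie apart, and the 3 polymerase genes held 1 each. Counted from the start base as 0, the spelling in *Pola1* began at position -138, whereas those in *Pold1* and *Pold3* began at 39 and 17, after the start. Outside the replication genes, only *Msh6*, *Smc1a* and *Cenpb* held a spelling, 1 each. All other genes of the rule with a promoter held none, among them *Mki67*, *Top1*, *Top2a*, *Top2b*, *Cdk4*, *Ccnd3* and *Cdkn1b*. The CCAAT box, which can share bases with an E2F spelling, was found on either strand in 6 of the 8 replication genes (75%), in 41.8% of lower genes and in 41.1% of all genes. The cell cycle homology region (CHR), searched as TTTGAA and known from genes of late phases, was found in 1 of the 8 (*Mcm2*), in 13.3% of lower genes and in 20.2% of all genes. These are matches of letters and not sites shown to be bound.

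**Figure D3:**
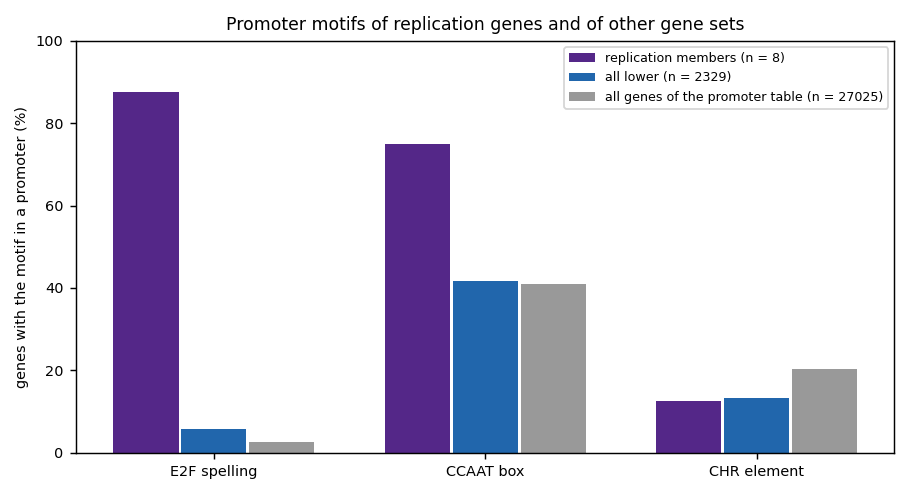
Bars give the percentage of genes (vertical axis) with each motif in a promoter, for the replication genes (8), all lower genes (2329) and all genes of the promoter table (27025). The E2F spelling was present in 87.5% of the replication genes, 5.75% of lower genes and 2.60% of all genes, whereas the CHR element was in 12.5%, 13.3% and 20.2%.

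The genes of SMC complexes, the rings that hold and fold chromosomes, were listed as lower in 8 of 12 cases (66.7%). The share of all protein-coding genes was 13.2%, and the difference was not tested. The lower genes comprised 6 of 7 annotated Smc genes, the exception being the germline gene *Smc1b*. *Stag1*, *Stag3* and *Rad21l* were also in neither table. In cohesin, *Smc1a* had an average log2 CPM of 7.48, *Smc3* of 7.17, *Rad21* of 7.31 and *Stag2* of 7.20. Per kb of exon the 4 cohesin genes had from 17.7 (*Stag2*) to 37.5 CPM (*Rad21*). The condensin genes *Smc2* and *Smc4* had 16.3 and 27.0 CPM per kb, and *Smc5* and *Smc6*, whose complex acts in repair, 16.2 and 13.3. Thus 7 of the 8 lay above the median level per kb of all lower genes, *Smc6* being the exception. In the separate list of cohesin loading and condensin genes, 8 of 22 were listed as lower (36.4%) and 0 as higher. Of all protein-coding genes, 13.2% were lower and 2.3% higher, so that 0 of 22 cannot be told from the background. Among the lower genes were the cohesin loader *Nipbl* (average log2 CPM 8.21), *Pds5a* (7.66) and the release factor *Wapl* (7.18). The condensin genes *Ncaph*, *Ncapg* and *Ncapd3* and the Nsmce genes of the list were in neither table.

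Topoisomerases relieve twists in DNA, and 3 of 4 annotated genes of the nuclear and mitochondrial enzymes searched were lower. Of all protein-coding genes, 13.2% were lower and 2.3% higher, and no difference of a group in this paragraph from these shares was tested. *Top2a*, which rises in dividing cells, and *Top2b*, which resting cells also use, had nearly the same pooled level per kb, 21.8 and 19.8 CPM. *Top1* had 10.1 CPM per kb, and *Top1mt* was in neither table. *Mki67*, of the same proliferative program as *Top2a*, had an average log2 CPM of 8.49 and, per kb of exon, stood next to *Rad21*. Of the 33 genes in a list of mitosis and spindle checkpoint genes, 1 was lower (3.03%, against 13.2%), *Incenp* (5.72), and 0 were higher. *Aurkb*, *Plk1*, *Bub1* and *Birc5* were thus in neither table. Of 21 annotated Cenp genes, 1 was lower. This was *Cenpb* (average log2 CPM 5.76), whose product binds a short motif in centromeric satellite DNA.

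Kinesins, motors that move along microtubules, were the only role group with genes in both tables. Of 39 annotated genes, 4 were listed as lower (10.3%, against 13.2% of all protein-coding genes) and 2 as higher (5.13%, against 2.3%). The 4 lower genes were *Kif21b* (average log2 CPM 7.68), *Kif5b* (7.18), *Kif13b* (6.91) and *Kif2a* (6.04). *Kif5b* and *Kif13b* encode cargo motors, and *Kif2a* a kinesin that shortens microtubules. The higher genes were *Kif21a* (5.72) and *Kif26b* (5.46). *Kif21a* and *Kif21b* encode close relatives that were listed in opposite directions, with pooled levels of 8.13 and 16.8 CPM per kb. *Kif26b* had the lowest level per kb of all 53 genes, 3.00 CPM, below the median of 4.54 CPM of all 533 higher genes. Its gene spans 410 kb with 14.7 kb of exon, and *Kif21a* spans 117 kb with 6.48 kb of exon. The 4 lower kinesin genes span from 41.2 to 162 kb, and all higher genes had a median span of 147 kb. The part of gene length in these listings was not tested. The mitotic kinesins *Kif11*, *Kif20a* and *Kif23* were in neither table.

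**Figure D4:**
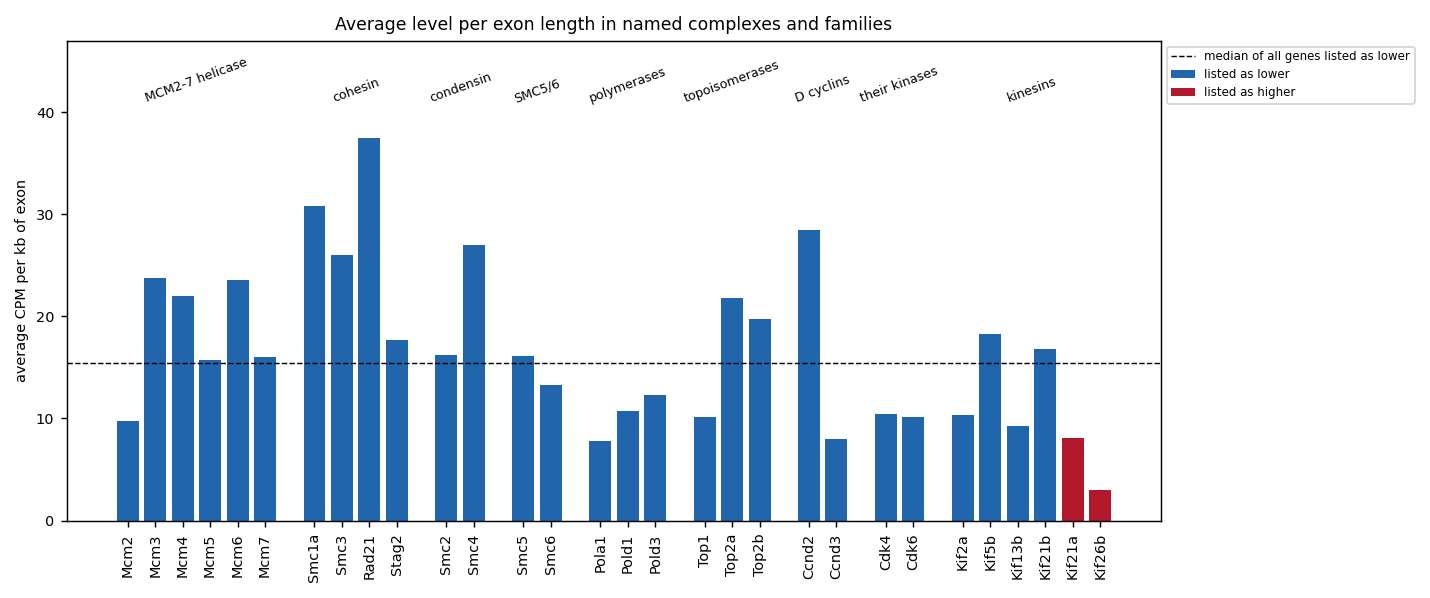
Bars give the pooled average CPM per kb of exon (vertical axis) for genes of named complexes and families, coloured by the table they were listed in, with the median of all lower genes, 15.4, as a dashed line. Cohesin genes reached 37.5 CPM per kb, the MCM genes lay between 9.75 and 23.8, and the 2 higher kinesin genes had 8.13 and 3.00. No error bars are drawn because the authors' average has no spread.

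The repair genes were listed at shares near that of all protein-coding genes (13.2% lower), with 9.09% of 33 genes of damage kinases and recombination and 17.4% of 23 genes of mismatch repair, end joining and the PARP family. *Atm*, the gene of the kinase that signals double-strand breaks, had an average log2 CPM of 7.24 and 14.6 CPM per kb, while *Atr*, the gene of the kinase that responds to stalled forks, was in neither table. *Rad50*, part of the complex that first holds broken ends, had 6.90 and 22.3 CPM per kb. *Rad23b*, of nucleotide excision repair, had 6.29 and 13.6 CPM per kb. Fanconi and Brca genes were absent from both tables, with 0 of 11 annotated genes with a Fanc symbol and neither *Brca1* nor *Brca2* listed. The 11 include *Fancd2os*, which only shares the symbol. The same held for the 6 Xrcc genes of strand break repair. Of 12 Parp genes, 3 were lower. They were *Parp1* (6.33), whose enzyme marks broken DNA with poly(ADP-ribose), *Parp4* (6.78) and *Parp14* (6.54), the last known from IL-4 and STAT6 signalling. Of 5 Msh genes of mismatch repair, *Msh6* (5.90) was lower.

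Other genes of these pathways, from lists outside the symbol rule, gave 35 lower (16.7%) and 0 higher of 209, against 13.2% lower and 2.3% higher of all protein-coding genes, so their share was near the background. The genes named from each list are those with the highest authors' average log2 CPM, a choice that favours long transcripts and gives no order of abundance. Of the replication origin and fork genes 5 of 34 were lower (14.7%), among them *Orc4* (average log2 CPM 6.52), *Rpa1* (6.24) and *Pcna* (5.75), the sliding clamp. On the scale per kb of exon, *Pcna* had 22.5 CPM, *Rpa1* 13.6 and *Orc4* 12.3. Of the ubiquitin ligases of cell cycle proteins, 5 of 23 were lower (21.7%), among them *Skp1* (6.69), *Anapc5* (6.40) and *Cdc27* (6.36). Of the damage signalling genes, 6 of 24 were lower (25%), among them the p53 regulator *Mdm4* (7.45), *Gadd45b* (7.11) and *Trp53bp1* (6.70). The levels per kb of exon were 87.2 CPM for *Gadd45b*, 11.8 for *Mdm4* and 7.35 for *Trp53bp1*. Of the double-strand break repair genes 5 of 24 were lower (20.8%), among them *Rif1* (7.46), *Wrn* (6.77) and *Usp1* (6.13). Of the excision and mismatch repair genes, 2 of 37 were lower (5.41%), *Ddb1* (7.22) and *Ercc5* (5.64). Of the partners of E2F and retinoblastoma proteins, 3 of 12 were lower (25%), namely *Rbl2* (7.89), *Rbbp4* (7.09) and *Tfdp1* (5.43).

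Beyond symbol and listing, the 51 lower genes had long coding sequences. Their median coding length was 2.60 kb against 1.57 kb for all lower genes, whereas their median exon length was 6.00 kb against 5.19 kb. They were spread over the X chromosome and all autosomes, with at most 5 of the 53 genes on 1 chromosome. Of 14 markers of ILC2s, all were listed, and all as lower. Per kb of exon they ranged from 29.8 CPM (*Rora*) to 177 CPM (*Areg*), with 146 CPM for *Il1rl1* and 107 CPM for *Il7r*, which encode ST2 and CD127, both used in the sort. Of 13 markers of T, B and natural killer cells, 1 was listed, *Cd3g* (6.12, lower), and of 13 markers of myeloid and epithelial cells, 0. A marker in neither table may be scarce or alike in both populations, so these counts do not measure the purity of the sort. The paper describes lineage marker levels as low and not statistically different, but its text does not name the genes. CPM depends on all genes of a library, and in the authors' averages the 10 genes typed as major satellite repeats, all listed as higher, summed to 110595 CPM, against 5859 CPM for the 51 lower genes. The part of these repeats in the listings was not tested.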

How the data were processed

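RNA was measured in tdTomato- and tdTomato+ lung ILC2s, with 4 libraries of each in the labels, made with a stranded low-input kit. Per the study's methods, reads passed FASTP before STAR alignment to GRCm39, and featureCounts with an Ensembl annotation gave the counts that the authors compared in edgeR. The submitters' processing notes also name HOMER and mm10, the build to which the methods align the accessibility reads. The use of strand in counting and the versions of these tools are not given in the sources used here. The authors deposited 2 tables of genes that passed their limits on false discovery rate and average level (lowest log2 CPM 5.00). The column used is the authors' average log2 CPM over the libraries of their fit, a pooled mean. The other 4 numeric columns (fold change, likelihood ratio, p-value and false discovery rate) are the authors' own comparison and were not used. The number of unused columns of per-sample values is 0, since no table gives single libraries. Depth per library is therefore unknown, no interval is given, and no test over samples could be made.

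Genes were taken by symbol, and the members and lists were chosen with earlier results of these data known. CPM is 2 to the power of the authors' average. Exon length (union over all transcripts, which lowers the level per kb of genes with many isoforms), coding length, span and the protein-coding genes came from GENCODE M21 (GRCm38) through Ensembl identifiers, which matched 2905 of the 2906 genes listed as lower and 532 of the 533 listed as higher. Promoters matched by symbol. All genes of the rule were put in role groups, and lists were looked up by symbol or synonym. Named were all genes of the rule by role, including those in the higher table, and up to 3 listed genes of each pathway list with the highest average log2 CPM. Of the ILC2 markers, those lowest and highest per kb of exon and *Il1rl1* and *Il7r* were named. Some well-known genes in neither table were chosen after the tables were read. Motif search was tested on simulated sequences. Python 3.11.15, numpy 2.4.6, pandas 2.3.3 and scipy 1.17.1 were used. Alternatives were a higher level limit, other members, other lengths, other motif spellings and strands and, chosen after seeing the data, RefSeq genes and the first promoter of a gene. Chromatin accessibility, with 2 libraries per population, was not analysed here.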

Additional observations from a re-analysis of the deposited data

How the results depend on the processing

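No paired analysis was possible because the tables hold no value of a single library, and for the same reason no library could be left out. With an average log2 CPM of at least 6, all 44 remaining genes were lower (100%, against 96.2% in the report), as were all 47 without kinesins (100%), since both higher genes are kinesins below that level. Without *Cdkn2aipnl* the share was 96.2%. The median average log2 CPM of the lower genes of the rule exceeded that of all lower genes by 0.14, by 0.093 without kinesins and by 0.053 on the log2 scale per kb of exon, but with a limit of 6 it was below it (-0.061). The sign of this small difference therefore rests on genes near the lower limit of the tables. With RefSeq in place of GENCODE genes, 23.8% of annotated genes were lower, against 23.7%. The E2F spelling was in 87.5% of the 8 replication genes, in 62.5% on the given strand only, in 87.5% with the first promoter only, and the shorter core GCGC in 100%, as in 86.0% of all lower genes with a promoter. The ratio of median lengths to all lower genes was 1.15 for exons and 1.66 for coding sequence. Depth limits cannot be stated, because counts per library are not in the tables used here.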

Other observations

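The symbol rule takes only cyclins with a number, so 3 cyclin genes of the transcription machinery fell outside it and were looked up after the tables were read. *Ccnk*, whose protein partners the products of *Cdk12* and *Cdk13*, was listed as lower with an average log2 CPM of 5.09, close to the lowest listed value. *Ccnc* and *Ccnh*, the cyclins of *Cdk8* and *Cdk7*, were in neither table.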
